A study of Homo sapiens with 6 samples.

Results

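The genes described here are the liver X receptors (LXRs) NR1H2 and NR1H3 and 8 genes tied to them in sterol efflux and lipid remodelling: ABCG1, ABCA1, MYLIP, TTC39B, SREBF1, LPCAT3, PLTP and SMPDL3A. These 10 of the 23686 genes in the deposited files were listed by name. The set was chosen by function around ABCG1, and ABCG1 was selected on its log2 fold change in the same comparison as is described here. It had the largest decrease among genes that averaged at least 5 CPM (reads scaled to a common library total), passed the test and had no overlap between the groups. Of these conditions, the selection named only that genes be well read, so ranking first under all of them is no added evidence. The differences between the groups in these genes are therefore given as descriptions, without p-values, and how many of them passed the threshold is given only as a count beside the share of all genes that did. RNA came from 6 samples of HEK293, an established human line derived from embryonic kidney, all GFP+ and all sorted for green fluorescence. In 3 samples, called co-culture here, the cells had spent 10 h with ROS-producing HEK293 neighbours (+DAAO), with D-alanine at 25 µM. ROS are reactive oxygen species. DAAO usually stands for D-amino acid oxidase, which releases hydrogen peroxide from D-amino acids. The other 3 samples were the wild-type controls. The labels hold the same treatment text for all 6 samples, so they do not tell whether D-alanine or partner cells were also present in the control cultures. They also do not tell whether the samples came from separate cultures, so the spread between samples may be partly technical.

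LXRs are nuclear receptors that bind oxysterols, which are oxidised forms of cholesterol. They sit on DNA as heterodimers with retinoid X receptors (RXRs), typically at direct repeats of a hexamer spaced by 4 bases (DR4), and raise transcription of genes that move cholesterol out of the cell when sterols are abundant. The opposite arm of sterol control is SREBP2, which raises cholesterol synthesis and uptake when sterols are scarce.

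The libraries held 19091085 to 36250314 reads on the reverse strand of genes, the strand that the stranded kit reports. All 9 HEK293 marker genes examined were read well enough to be tested, with a summed level of 1803 to 1876 CPM in the controls and 2163 to 2373 CPM in co-culture, most of it from VIM. Of the 10 markers of other cell types, 8 were too low to be tested and HBB had 0 reads in all 6 libraries, which in the shallowest library allows up to 3 reads (counting error only), while COL1A1 stood at 31.0 to 44.4 CPM. The summed level of these 10 was 33.1 to 42.0 CPM in the controls and 41.3 to 46.1 CPM in co-culture. The part of these marker differences in the results below was not tested. As this is bulk RNA, fewer cells expressing a gene and less RNA per cell cannot be told apart. The libraries also differed in forward-strand reads. Among the 4907 genes whose count reached 1000 in each of the 6 libraries, such reads had a median share of 0.124% and 0.211% in co-culture libraries 2 and 3, against 1.57% to 1.75% in co-culture library 1 and the 3 controls. Differences fitted with this strand class as a term are given for the 9 tested genes of the 10, and for other genes where they changed a call or moved the value by over 1.5 times. Only co-culture library 1 shares a class with the controls, so such values compare that library with them.

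Promoter sequences from RefSeq (GRCh38.p14) were matched for 8 of the 10 genes, and the 250 bases before each listed start site were searched for the DR4 consensus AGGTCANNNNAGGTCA on both strands, allowing 2 mismatches in the 12 fixed letters. Of 35116 such windows in the table, 2.03% held a match. Among the windows of the 8 genes, only that of ABCA1 did. The 2 genes without a promoter sequence were ABCG1 and SMPDL3A, so their windows were not searched. Its 16 bases lie 69 to 54 bases before the start site, read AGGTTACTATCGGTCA on the opposite strand, and are in capitals below. ABCA1 is shown because it carries the match, and MYLIP and LPCAT3 as examples of genes whose levels separated the groups while their windows held no match. The same held for NR1H2 and SREBF1, whose windows are not shown. A match describes letters only, and its absence says only that the letters are not in this window.
ABCA1, chr9:104928156-104928405, minus strand: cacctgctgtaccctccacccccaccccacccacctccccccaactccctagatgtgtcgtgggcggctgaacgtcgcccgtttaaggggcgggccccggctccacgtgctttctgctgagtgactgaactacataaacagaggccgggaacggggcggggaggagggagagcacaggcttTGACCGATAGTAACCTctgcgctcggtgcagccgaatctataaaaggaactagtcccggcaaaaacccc
MYLIP, chr6:16128836-16129085, plus strand: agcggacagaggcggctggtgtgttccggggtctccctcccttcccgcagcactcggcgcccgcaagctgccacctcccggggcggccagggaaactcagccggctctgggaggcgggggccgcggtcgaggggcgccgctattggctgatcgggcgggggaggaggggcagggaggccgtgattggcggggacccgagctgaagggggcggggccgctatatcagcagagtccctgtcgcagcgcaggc
LPCAT3, chr12:7018477-7018726, minus strand: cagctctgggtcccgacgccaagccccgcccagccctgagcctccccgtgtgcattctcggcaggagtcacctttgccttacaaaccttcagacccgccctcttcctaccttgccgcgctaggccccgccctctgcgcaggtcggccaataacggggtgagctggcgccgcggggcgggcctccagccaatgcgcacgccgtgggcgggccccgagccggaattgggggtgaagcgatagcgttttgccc

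The receptor genes had small differences between the groups. NR1H2, which encodes LXRβ, the form found in most tissues, stood at 40.3, 33.8 and 34.5 CPM in controls 1, 2 and 3 and at 32.9, 29.8 and 29.8 CPM in co-culture libraries 1, 2 and 3. CPM values are scaled by trimmed means of M-values (TMM). All 3 co-culture libraries lay below all 3 controls, but the highest of them came within 1 CPM of the lowest control. The log2 fold change of co-culture against control, also called the log2 difference below, was -0.23 (standard error, SE, 0.09). It was -0.15 without control 1 and -0.14 (SE 0.13) with the strand class as a term. NR1H3, which encodes LXRα, the form of liver, macrophages and fat, stood at 7.93, 8.45 and 7.60 CPM in the controls and 8.46, 7.89 and 8.44 CPM in co-culture. These ranges overlapped almost fully, with a log2 fold change of 0.05 (SE 0.12), and of 0.08 (SE 0.18) with the strand class as a term. TTC39B, whose product promotes the breakdown of LXR protein, also overlapped, at 6.52, 7.82 and 6.29 CPM in the controls and 6.70, 7.74 and 7.01 CPM in co-culture (log2 fold change 0.06, SE 0.14). Its value was -0.03 with the strand class as a term and 0.16 without control 2.

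**Figure D1:**
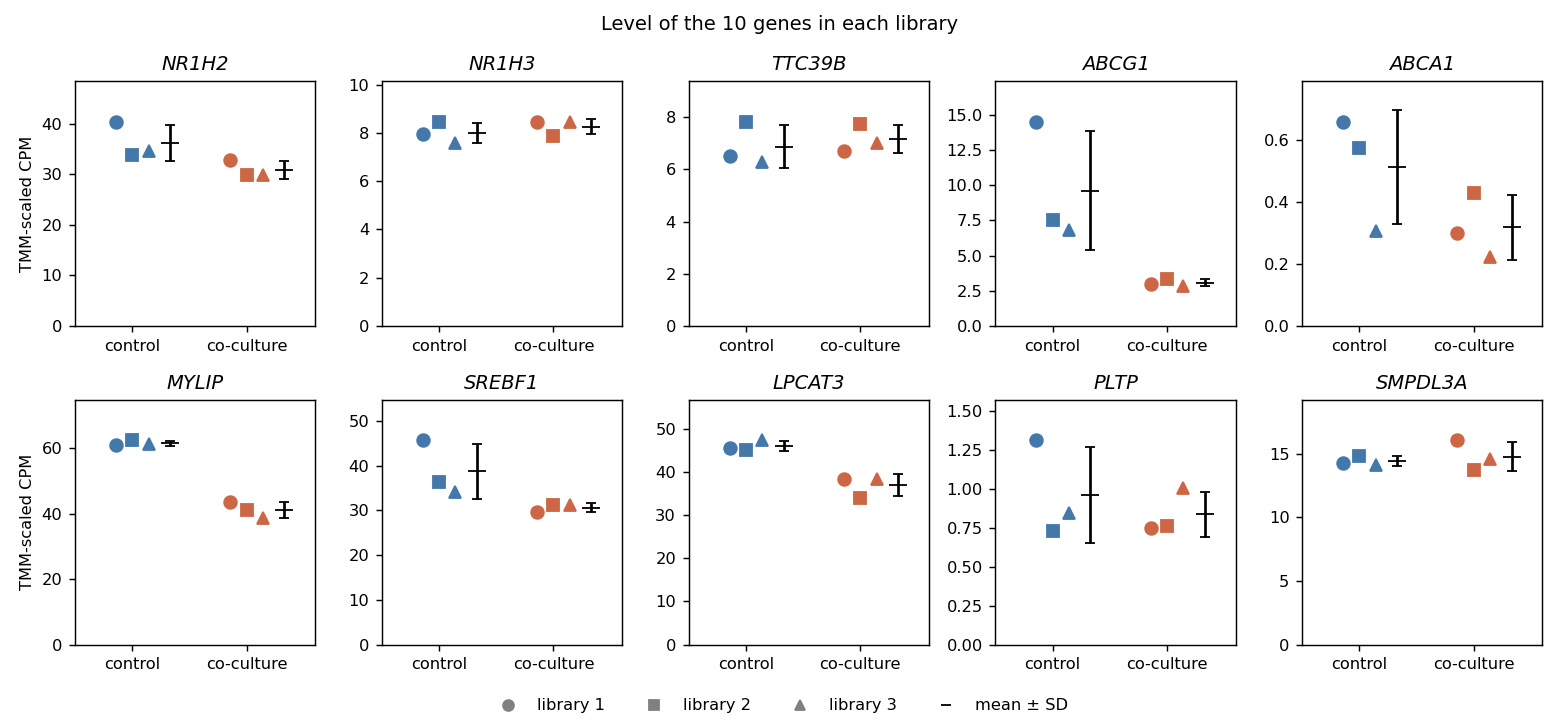
TMM-scaled CPM of each of the 10 genes (vertical axis from 0) in the 3 control (blue) and 3 co-culture (orange) libraries, with the symbol giving the library number and the black mark the mean ± SD of each group. ABCG1 stands at 14.5 CPM in control 1 and 2.88 to 3.37 CPM in co-culture, while MYLIP separates the groups with its controls close together at 61.1 to 62.4 CPM.

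Among the efflux transporters, ABCG1 was lower in every co-culture library than in every control. Its product loads cholesterol onto high-density lipoprotein particles. Control libraries 1, 2 and 3 held 287, 144 and 178 ABCG1 reads, and co-culture libraries 1, 2 and 3 held 60, 71 and 103. After scaling, the controls stood at 14.5, 7.51 and 6.83 CPM and co-culture at 3.00, 3.37 and 2.88 CPM. Control 1 was therefore high, at 2.02 times the mean of the other controls, while the co-culture libraries lay close together. The mean of the controls was 9.62 ± 4.25 CPM and that of the co-culture libraries 3.08 ± 0.258 CPM (SD, n = 3 each), which gives a ratio of 3.12 of control over co-culture. With control 1 left out that ratio was 2.32. The log2 fold change was -1.64 (SE 0.28) over all libraries and -1.22 (SE 0.15) without control 1. It was -1.67 (SE 0.47) with the strand class as a term. Co-culture library 1, the only library of its group in the class of the controls, lay below all of them. As ABCG1 was selected for its decrease in these same libraries, that position is no independent support. The part of the strand class in the difference was not tested. Of all 14582 tested genes, 12 had a lower log2 fold change than ABCG1. Of these 12, 7 passed the threshold and 2 averaged at least 5 CPM (highest mean 19.7 CPM), but 0 met all the conditions named in the opening.

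ABCA1, which passes cholesterol and phospholipid to lipid-poor apolipoprotein A-I, was close to the limit of detection. It had 13, 11 and 8 reads in controls 1, 2 and 3 and 6, 9 and 8 reads in co-culture libraries 1, 2 and 3. This equals 0.657, 0.574 and 0.307 CPM in the controls and 0.300, 0.428 and 0.223 CPM in co-culture. The groups overlapped, and the gene did not pass the filter on low counts, so it is the 1 gene of the 10 outside the fit.

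MYLIP encodes the ubiquitin ligase that marks lipoprotein receptors such as VLDLR and LRP8 for degradation. It stood at 61.1, 62.4 and 61.1 CPM in controls 1, 2 and 3, and at 43.5, 41.0 and 38.8 CPM in co-culture libraries 1, 2 and 3. The controls lay close together, and the gap between the groups was far wider than the range within either. The means were 61.5 ± 0.730 and 41.1 ± 2.38 CPM (SD, n = 3 each), and the log2 fold change was -0.58 (SE 0.07). It was -0.59 without control 1 and -0.50 (SE 0.10) with the strand class as a term. ABCG1 and MYLIP thus differed in how they varied among the controls: of 11647 genes with a mean of at least 5 CPM, 99.5% had a smaller SD of log2 CPM over the 3 controls than ABCG1 and 2.03% a smaller one than MYLIP.

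SREBF1 encodes the transcription factor SREBP1, which drives fatty acid synthesis and is itself an LXR target. It stood at 45.6, 36.3 and 34.1 CPM in controls 1, 2 and 3 and at 29.5, 31.1 and 31.2 CPM in co-culture. The groups did not overlap, but control 1 was high here too, at 1.30 times the mean of the other controls. The log2 fold change was -0.33 (SE 0.10), and -0.20 (SE 0.07) without control 1. It was -0.39 (SE 0.16) with the strand class as a term. LPCAT3, which places polyunsaturated acyl chains into membrane phospholipids, stood at 45.6, 45.2 and 47.3 CPM in the controls and 38.3, 33.9 and 38.4 CPM in co-culture. Its controls lay close together, all above the co-culture libraries, with a log2 fold change of -0.32 (SE 0.07) and of -0.26 (SE 0.11) with the strand class as a term.

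PLTP, a plasma protein that moves phospholipids between lipoproteins, had few reads, with 26, 14 and 22 in the controls and 15, 16 and 36 in co-culture. At 1.31, 0.730 and 0.844 CPM against 0.751, 0.760 and 1.01 CPM the groups overlapped, and the log2 fold change of -0.16 (SE 0.31) became 0.12 without control 1, -0.34 without co-culture library 3 and -0.35 (SE 0.50) with the strand class as a term. SMPDL3A, a phosphodiesterase that LXR induces in macrophages, stood at 14.3, 14.9 and 14.1 CPM in the controls and 16.1, 13.7 and 14.6 CPM in co-culture. These ranges overlapped as well, with a log2 fold change of 0.04 (SE 0.10). Its value was 0.16 (SE 0.14) with the strand class as a term and -0.02 without co-culture library 1.

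**Figure D2:**
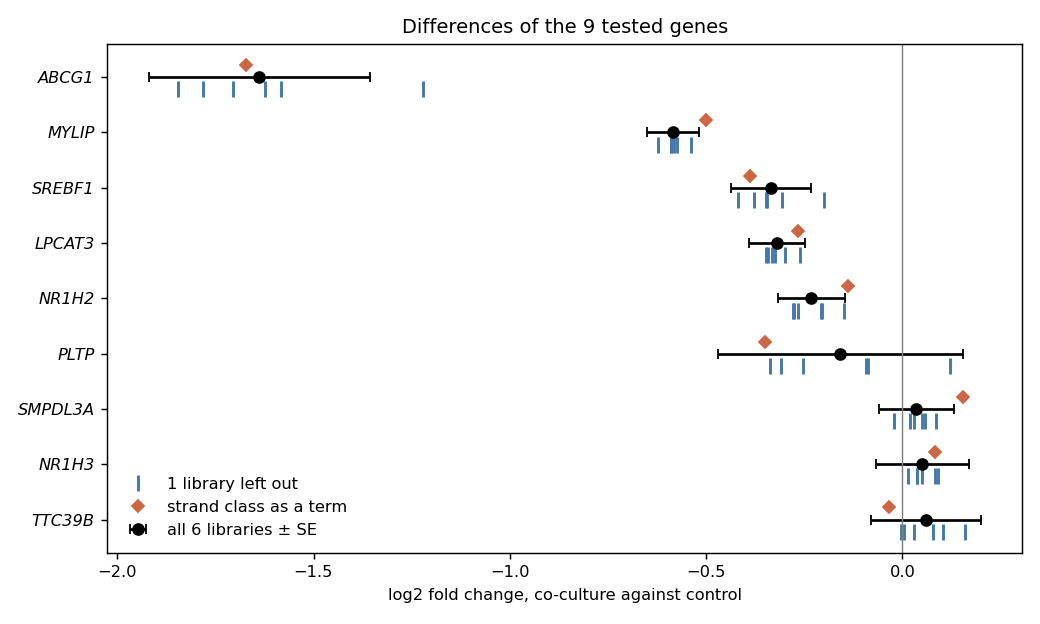
Log2 fold change of co-culture against control (horizontal axis) for the 9 tested genes, with black points and bars for the edgeR estimate ± SE from all 6 libraries, blue ticks for estimates with 1 library left out and orange diamonds for values with the strand class as a term. Without control 1 the value of ABCG1 moves from -1.64 to -1.22, while those of MYLIP and LPCAT3 stay within 0.10 of their values from all libraries in every fit shown.

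Of the 9 tested genes, 5 did not overlap between the groups (ABCG1, MYLIP, LPCAT3, NR1H2 and SREBF1), all lower in co-culture, where 15.0% of all tested genes were lower without overlap and 29.3% showed no overlap in either direction. Of the 9, 3 had an adjusted p under 0.05 in edgeR's fit across all genes (ABCG1, MYLIP and LPCAT3), all lower, where 4.83% of all tested genes passed in either direction and 2.17% passed lower. Since the set was listed with this comparison in view, nothing is read from these counts. ABCG1 was not past the threshold without any one of the 3 co-culture libraries (log2 fold changes -1.62, -1.70 and -1.58), and when single libraries were left out LPCAT3 was past it only without control 1 (-0.33). SREBF1 was past it without control 3 (-0.42). Under the strand class term 0 of the 9 passed in edgeR, where 0.199% of all genes passed. In that fit 4 of the 9 had an unadjusted p under 0.05, as did 12.5% of all genes. The 9 genes had a median log2 fold change of -0.23, and that of all tested genes was -0.00.

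Per kilobase of exon (GENCODE 29 basic transcripts), levels in the controls spanned a wide range. LPCAT3, MYLIP and NR1H2 were at 20.3 ± 0.492, 20.3 ± 0.241 and 17.3 ± 1.72 CPM per kb (SD, n = 3 each). LPCAT3 and MYLIP did not differ beyond their spread. NR1H2 lay below both, as its highest control, at 19.3 CPM per kb, was under the lowest of either. SREBF1 followed at 8.61 ± 1.36 and SMPDL3A at 7.32 ± 0.198 CPM per kb, and these means differed by less than the SD of SREBF1, although their controls did not overlap. NR1H3 at 2.28 ± 0.123 and ABCG1 at 2.11 ± 0.933 CPM per kb also did not differ beyond the spread of ABCG1. TTC39B at 0.621 ± 0.0747, PLTP at 0.379 ± 0.122 and ABCA1 at 0.0455 ± 0.0162 CPM per kb were lowest. In co-culture ABCG1 was at 0.678 ± 0.0567 CPM per kb, level with TTC39B at 0.646 ± 0.0482 and below NR1H3 at 2.36 ± 0.0921. These levels depend on the exon length used, which may differ from that of the authors' annotation.

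The genes with the pattern nearest to ABCG1 over the 6 libraries were ISG15, IFIT3, IFIT1, CCL20 and MT1X. Likeness was the root mean square difference of log2 CPM after centring each gene on its own mean, taken over 11639 other genes with a mean of at least 5 CPM. It was 0.16, 0.19, 0.26, 0.27 and 0.28 for these 5, against a median of 0.86. ISG15, a ubiquitin-like protein induced by interferon, stood at 21.1, 9.34 and 7.29 CPM in controls 1, 2 and 3 and at 4.35, 4.70 and 3.66 CPM in co-culture. IFIT1, an interferon-induced RNA-binding protein, stood at 35.1, 20.9 and 15.4 CPM against 10.8, 11.3 and 10.03 CPM. In all 5, as in ABCG1, control 1 was the highest library and the co-culture libraries were the lowest. This describes 6 libraries and was picked for that likeness. None of the other 9 genes came as near to ABCG1. Its nearest was ABCA1, at 0.56, followed by MYLIP at 0.60, whereas NR1H3 and SMPDL3A, the nearest pair among the 10, were 0.05 apart.

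**Figure D3:**
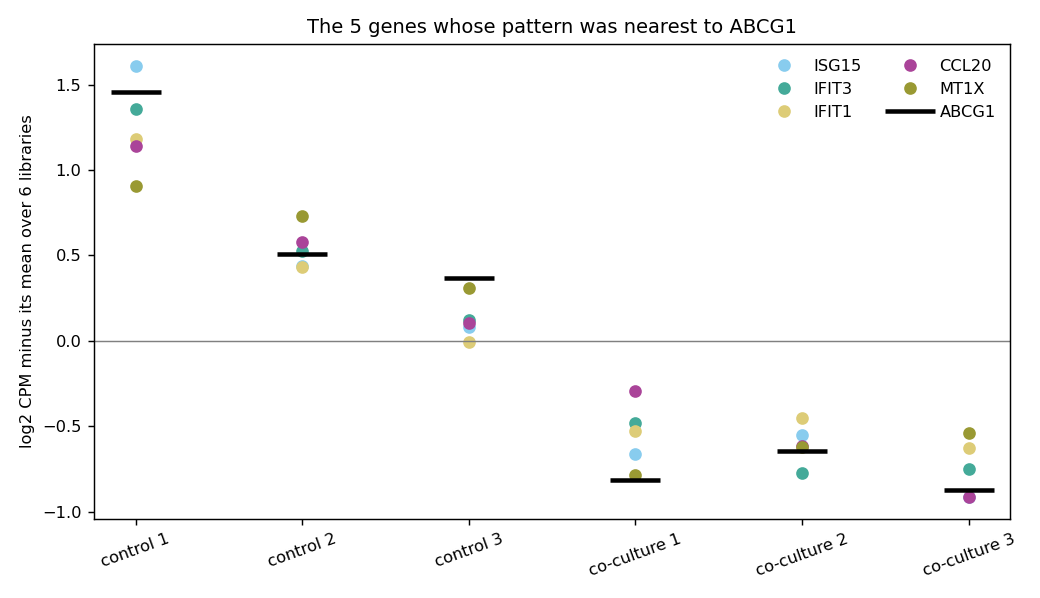
Log2 CPM of ABCG1 (black bars) and of its 5 nearest genes (coloured points), each minus its own mean over the 6 libraries (vertical axis), by library (horizontal axis). All 6 genes are highest in control 1, and their co-culture libraries all lie below their controls.

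The rest of the sterol pathway was examined through 6 lists that left out the 10 genes and held 118 others, of which 101 were tested. In edgeR's test 8 of the 101 rose and 0 fell (adjusted p under 0.05), where 2.66% of all tested genes rose and 2.17% fell. The median log2 fold change of the 101 was 0.01. All 8 that rose act in cholesterol synthesis or in the uptake and movement of sterols. In the same fit 23.2% of all tested genes had an unadjusted p under 0.05 and 50.4% had a log2 fold change below 0. The number of calls depended on single libraries, as did the share of all tested genes that passed. It was 42 without control 1 (28 higher, 14 lower), where 20.8% of all tested genes passed. It was 4 without co-culture library 1 (0.831% of all tested genes) and 4 without co-culture library 2 (0.503%). It was 3 without control 2 (0.440%) and 1, IDI1, with the strand class as a term (0.199%).

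The partners and cofactors of LXR did not pass the test. Of 20 tested, 0 had an adjusted p under 0.05 in edgeR, 7 had an unadjusted p under 0.05, and 15 were below 0 with a median of -0.07. Without control 1, 8 of the 20 passed (1 higher, 7 lower), where 20.8% of all tested genes passed. DESeq2 called 1, lower, the acetyltransferase gene CREBBP, named after its values were seen. In DESeq2 7.52% of all genes with an adjusted p passed. NCOR1, a corepressor, stood at 309 ± 15.4 CPM in the controls and 308 ± 5.93 CPM in co-culture (log2 fold change -0.00, SE 0.06, edgeR adjusted p 0.971). With the strand class as a term NCOR1 stood at 0.03. MED1, a Mediator subunit that nuclear receptors contact, stood at 272 ± 35.7 and 260 ± 9.77 CPM (log2 difference -0.07, SE 0.09, edgeR adjusted p 0.692). Without control 1 MED1 was past the threshold at -0.17, whereas without control 3 it stood at 0.02 and with the strand class as a term at -0.01. The RXR genes, named after their values were seen, had log2 fold changes of -0.17 for RXRA, -0.05 for RXRB and -0.64 for RXRG, with edgeR adjusted p-values of 0.193, 0.683 and 0.279. RXRB stood at -0.14 and RXRG at -0.20 with the strand class as a term.

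The other LXR target genes gave no call with all 6 libraries, but this depended on control 1. Of 23 tested, 0 had an adjusted p under 0.05 in edgeR, 8 had an unadjusted p under 0.05, 14 were above 0 and 9 below, and the median log2 fold change was 0.12. Without control 1, 11 of the 23 passed in edgeR (9 higher, 2 lower), where 20.8% of all tested genes passed. Without control 3 the only call was APOE, and DESeq2 called APOE and ELOVL5, a fatty acid elongase named after its values were seen. Of all genes with an adjusted p in DESeq2, 7.52% passed. FASN, the fatty acid synthase, stood at 783 ± 23.02 CPM in the controls and 884 ± 55.4 CPM in co-culture (log2 fold change 0.17, SE 0.07, edgeR adjusted p 0.154). With the strand class as a term FASN stood at 0.09. SCD, the stearoyl-CoA desaturase, stood at 630 ± 119 and 723 ± 17.9 CPM (log2 difference 0.20, SE 0.11, edgeR adjusted p 0.326), with control 1 the highest control. SCD passed without control 1, at 0.36, and stood at 0.09 without control 3. FASN and SCD are also driven by SREBPs. APOE, the lipoprotein ligand that accepts effluxed cholesterol, is named after its values were seen. It stood at 27.0, 19.8 and 14.6 CPM in controls 1, 2 and 3 and at 10.4, 12.6 and 12.3 CPM in co-culture. As with ABCG1 the groups did not overlap and control 1 was highest. The log2 fold change of APOE was -0.79 (SE 0.20, edgeR adjusted p 0.0620). Its call depended on the setting: it was lower past the threshold without control 1 (-0.53), without control 3 (-0.99) and in DESeq2 (-0.79), and not in the other 11 settings.

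Genes that make or remove oxysterols gave 1 call among 15 tested, which was higher, and 4 without control 1 (1 higher, 3 lower). Over all tested genes 4.83% passed, and 20.8% without control 1. OSBPL8, a sterol-binding protein of membrane contact sites, stood at 167 ± 18.9 and 193 ± 16.4 CPM (log2 difference 0.20, SE 0.09, edgeR adjusted p 0.203), and at 0.12 without control 1.

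Genes of sterol uptake, transport and storage gave 3 calls among 23 tested, all higher, and 11 without control 1 (9 higher, 2 lower). The shares over all tested genes were 4.83% and, without control 1, 20.8%. LRP8, a lipoprotein receptor and target of the MYLIP ligase, stood at 46.9, 43.9 and 40.6 CPM in controls 1, 2 and 3 and at 65.6, 66.2 and 65.3 CPM in co-culture. It rose, with an edgeR adjusted p of 0.00173 at a log2 difference of 0.59 (SE 0.07), and had an edgeR adjusted p of 0.0835 at 0.59 with the strand class as a term. SCARB1, the high-density lipoprotein receptor, rose from 54.6 ± 3.85 to 75.9 ± 1.96 CPM (log2 difference 0.48, SE 0.07, edgeR adjusted p 0.00486). STARD4, a cytosolic sterol carrier, rose from 56.7 ± 1.62 to 69.9 ± 3.71 CPM (log2 difference 0.30, SE 0.07, edgeR adjusted p 0.0293). Both lost the call with the strand class as a term (0.45 and 0.36) and without control 2 (0.45 and 0.30), and STARD4 also without co-culture library 1 or 2 or control 3 (0.27, 0.29 and 0.28) and with a replicate block. VLDLR, also a receptor that MYLIP targets, is named after its values were seen and did not pass. It stood at 52.4, 53.2 and 51.0 CPM against 42.6, 45.4 and 46.7 CPM (log2 difference -0.22, SE 0.07, edgeR adjusted p 0.0828). The groups did not overlap, with co-culture the lower. VLDLR was past the threshold without control 1 (-0.21) and with total counts (-0.25).

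Of the 14 SREBP pathway genes, all tested, 4 rose and 0 fell, where 2.66% of all tested genes rose and 2.17% fell. These 4 are enzymes of cholesterol synthesis that SREBP2 drives. This list was written with the rise of cholesterol synthesis genes in these data known, so its direction is no independent evidence. HMGCS1 rose from 288 ± 60.5 to 436 ± 16.9 CPM (log2 difference 0.60, SE 0.13, edgeR adjusted p 0.0345) and IDI1 from 94.6 ± 2.93 to 141 ± 6.70 CPM (log2 difference 0.57, SE 0.06, edgeR adjusted p 0.00105). SQLE had a log2 fold change of 0.36 (SE 0.06), at an adjusted p of 0.00719 in edgeR. Of the 4, only IDI1 kept its call in all 14 other settings. The call was lost without any of the co-culture libraries or control 2 for HMGCS1 (0.56 to 0.62), and without co-culture library 1 or 2 or control 2 for SQLE (0.33 to 0.38). With the strand class as a term HMGCS1 and SQLE stood at 0.66 and 0.43, also without a call. The processing components SCAP, MBTPS1 and MBTPS2 and the factor SREBF2 itself had log2 fold changes of -0.03, 0.02, 0.13 and 0.15, none past the threshold. Without control 1 SREBF2 passed, at 0.27, and the list gave 6 calls, all higher, where 20.8% of all tested genes passed. With the strand class as a term SREBF2 stood at 0.08, SCAP at -0.12 and MBTPS1 at -0.00.

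Other transporters of the ABCA and ABCG subfamilies gave 0 calls in edgeR among 8 tested, of which 2 had an unadjusted p under 0.05. Without control 1 there were 2 calls, ABCA5 (0.23) and ABCA2 (0.47), both higher, where 20.8% of all tested genes passed. ABCA2, named after its values were seen, stood at 0.15 with all libraries. ABCA3, a lipid transporter of lamellar bodies, stood at 63.2 ± 11.3 and 53.0 ± 2.86 CPM (log2 difference -0.25, SE 0.11, edgeR adjusted p 0.211), and at -0.10 without control 1. ABCA5 stood at 49.7 ± 0.302 and 58.4 ± 5.11 CPM (log2 difference 0.23, SE 0.07, edgeR adjusted p 0.0997). ABCG4, the transporter closest to ABCG1, is named after its values were seen and stood at 2.93, 2.87 and 2.88 CPM in the controls and 2.40, 3.23 and 2.88 CPM in co-culture, which overlapped.

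**Figure D4:**
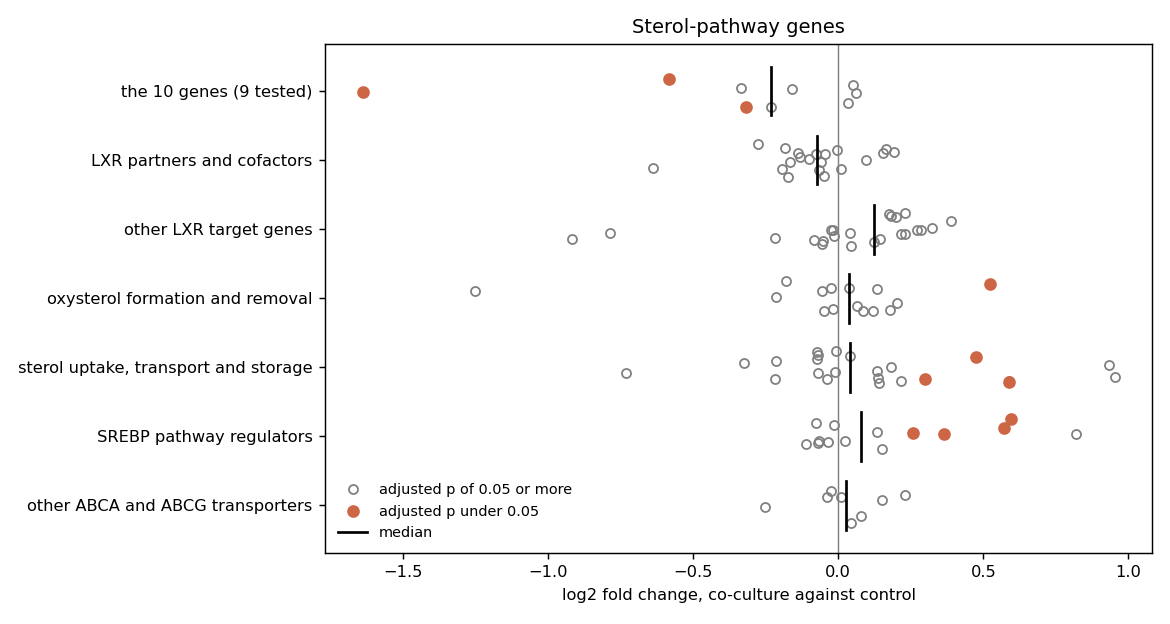
Log2 fold change of co-culture against control (horizontal axis) for each tested gene of the 10 described and of the 6 pathway lists, 1 point a gene, with filled points for an edgeR adjusted p under 0.05 and a black line for each list's median. The filled points of the 10 genes lie below 0 and the 8 filled points of the pathway lists above 0.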

How the data were processed

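The authors deposited raw counts of reads per gene for each library, in the layout of STAR's gene counting, with 4 summary lines and a column each for reads without regard to strand, on the forward and on the reverse strand. STAR 2.53a, FastQC and genome hg18 are named in the submitters' processing notes. The annotation release and trimming are not given in the sources used here. Per the labels, the kit was Illumina's stranded mRNA kit, and reverse-strand counts were used. The summary lines (24.2% to 28.5% of reads) were left out. In edgeR 4.0.16 (R 4.3.3), 14582 of 23686 genes were kept (filterByExpr, minimum count 10), scaled by TMM and tested with the robust quasi-likelihood test, group as the only term, with Benjamini-Hochberg adjustment over all tested genes. SEs were derived from the F statistic and the log2 fold change. Libraries of a group differed by more than sampling noise (chi-square per degree of freedom 4.72 to 18.7). Of the steps, only the edgeR fit with group as the only term was tested on simulated counts with known changes. Reads mapping to several places are not counted, which lowers genes with near-identical copies. A read was worth 0.0279 to 0.0522 CPM, which sets the precision of low values.

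The members and lists were chosen with earlier results of these data known. Genes were named by rule: the 10 members, up to 6 genes past the threshold per list (the 2 with the highest mean CPM added where fewer than 2 passed) and the 5 genes most like ABCG1. The same was planned for ABCA1, which was not tested. SC5D and NAXE were found under older symbols. Alternatives were DESeq2 1.42.0, limma-voom (limma 3.58.1), total counts, other filters, counts without regard to strand, a replicate block, the strand class and leaving out each library. Log2 values for likeness used a prior count of 0.5. Some genes that met the naming rule are not reported here.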

Additional observations from a re-analysis of the deposited data

How the results depend on the processing

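Over 14 other settings, the log2 fold changes of ABCG1, MYLIP, LPCAT3, NR1H2 and SREBF1 stayed below 0 in all 14 and that of NR1H3 above 0. ABCG1 was past the threshold in 10 settings, MYLIP in 13, LPCAT3 in 7 and SREBF1 in 1. The settings re-fit the same libraries in which ABCG1 was selected, so these tallies are no independent support. The share of all tested genes past the threshold also moved, for example to 20.8% without control 1 and 0.440% without control 2. ABCG1 ran from -1.84 to -1.22 and MYLIP from -0.62 to -0.50. TTC39B, SMPDL3A and PLTP changed sign in 2, 1 and 1 settings. With the strand class as a term, 29 genes, 0 of the 10 described and 1 pathway gene passed. DESeq2 called 14 pathway genes (12 higher, 2 lower), where 7.52% of all genes with an adjusted p passed in it, against 4.83% in edgeR. With 1 library left out, calls ran from 65 to 3069 over all genes, from 1 to 3 among the genes described and from 3 to 42 among pathway genes. HMGCS1 lost its call with total counts (0.56). Total counts gave 310 higher and 572 lower genes against 388 and 316, and 7 higher and 3 lower pathway genes. The causes were not tested.

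Same-numbered libraries did not deviate together (r across genes -0.04, -0.08 and -0.08, against 0.00 to 0.08 for other numbers), so the numbers are not taken as pairs. With a replicate block 164 genes passed, 2 of the genes described and 7 pathway genes. LPCAT3 and STARD4 lost their calls under that block (-0.32 and 0.30). Depth limits ABCA1 and PLTP.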

Other observations

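Reads on the forward strand, which stranded counting does not credit to a gene, were common over 4 of the 10 genes. Over PLTP they numbered 100 to 235 a library against 14 to 36 on the reverse strand, and made up 87.9% of the reads on both strands. They made up 21.4% over ABCA1, 15.5% over NR1H3 and 15.0% over LPCAT3, and between 0.472% and 3.00% over the other 6. Over ABCG1 there were 0 to 3 in any library.

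Control 1 stood apart in a subset of the genes. Its level over the mean of controls 2 and 3 was 2.02 for ABCG1, 1.67 for PLTP, 1.49 for ABCA1, 1.30 for SREBF1 and 1.18 for NR1H2, and 0.924 to 0.989 for the other 5. PLTP and ABCA1 rest on few reads. The median of this ratio was 0.974 over the 11647 genes that averaged 5 CPM or more, and 3.02% exceeded 1.5. Over all tested genes control 1 still differed more from controls 2 and 3 (chi-square per degree of freedom 10.8 and 18.7) than they did from each other (4.73). Leaving control 1 out raised the share of genes past the threshold from 4.83% to 20.8%. The cause was not tested.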
